A study of Mus musculus with 7 samples.

Results

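The genes described here are 10 marks of neuroblasts and immature neurons, out of 46333 genes counted in each library: Igfbpl1, Sp8, Sp9, Sox4, Sox11, Dcx, Stmn1, Tubb2b, Cd24a and Nrep. They were chosen by their levels in these same libraries. The set was built around Igfbpl1, for which the cre+ libraries have a lower and tightly grouped level, so every genotype difference of these 10 genes is given as a description, without a test. All 10 were counted in every library, and all 10 were among the 21542 genes that passed the filter on low counts.

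The series compared neurons from mice whose Il4ra gene, which encodes the alpha chain of the interleukin-4 receptor, is flanked by recombination sites on both alleles (IL-4R fl/fl). The 3 cre+ libraries (SynCre + IL-4R fl/fl) came from mice that also carry Cre recombinase driven by the neuronal promoter of synapsin 1, and the 4 cre- libraries (SynCre - IL-4R fl/fl) came from littermates without Cre. Both groups therefore carry the floxed alleles, the mice were adult females on a C57Bl/6 background, and the study used only animals free of germline recombination. Neurons were enriched from whole brain by magnetic removal of microglia, oligodendrocytes and astrocytes. The depletion antibodies that the methods list include none to endothelial cells, for which the isolates were stained afterwards as a purity check. From this flow cytometry check the paper reports a high neuronal purity, as a share of cells, whereas the levels below are of RNA.

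Neuroblasts are the migrating, newly committed daughters of neural stem cells. In the adult rodent brain they arise mainly in the ventricular-subventricular zone, from which they travel to the olfactory bulb and become inhibitory interneurons, and in the dentate gyrus, where they become granule cells. They carry transcription factors of the SoxC and Sp families, a set of tubulins and microtubule regulators used for migration and neurite outgrowth, and surface molecules that mature neurons lose. Synapsin 1 is a protein of mature presynaptic terminals, and its promoter is most active once a neuron has begun to differentiate.

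The libraries held 68213223 to 94376841 counts, which left sampling noise small for genes at the levels described here. The targeted gene, Il4ra, had a level, normalised to library size (CPM), of 29.5, 28.7 and 24.4 CPM in cre+ replicates 1 to 3 and 20.03, 23.2, 29.6 and 22.4 CPM in cre- replicates 1 to 4 (log2 fold change 0.21 ± 0.15 SE, adjusted p = 0.487, edgeR). These whole-gene counts cannot show a deletion of single exons and do not check the labels. Marker genes of mature neurons were present in every library, but the 14 endothelial markers summed to more CPM than the 19 mature neuron markers in each one. The cre+ replicate 1 library stood apart on both lists, with the lowest mature neuron sum (1459 CPM, against 2973 and 3491 in the other cre+ libraries and 3404 to 6374 in cre-) and the highest endothelial sum (23002 CPM, against 16614, 15932 and 10569 to 14763). Each count column is headed by a code, the 2 genotypes have no code letters in common, and a batch marked in this way cannot be told apart from the genotype.

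Igfbpl1 encodes a secreted protein related to the insulin-like growth factor binding proteins and is known as a mark of neuroblasts. Its level was 129.4, 130.1 and 135.2 CPM in cre+ replicates 1 to 3 and 215.7, 216.5, 214.4 and 206.8 CPM in cre- replicates 1 to 4. The 3 cre+ libraries lay together, well below the 4 cre- libraries, and the lowest cre- library was 1.53 times the highest cre+ library. The cre+ mean of 131.6 ± 3.17 CPM (SD, n = 3) was 38.3% lower than the cre- mean of 213.3 ± 4.47 CPM (SD, n = 4), with a log2 fold change of -0.70 ± 0.08 (SE). The within-genotype SD of its log2 CPM, pooled over both genotypes, was 0.032, while the median over 11294 genes with a mean of at least 10 CPM was 0.183, and 0.0531% of those genes had a smaller one. This small spread was part of how the gene was chosen. Igfbpl1 lies on chromosome 4 (45809468 to 45826923, minus strand, GRCm39), and exons of Gm69699 and Gm69728 on the opposite strand cover 6.09% of its exon bases. Without a stated strand setting, reads of genes that overlap on opposite strands cannot be told apart. In bulk RNA, fewer cells of a type and less RNA per cell cannot be told apart either, here and for every gene below.

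**Figure D1:**
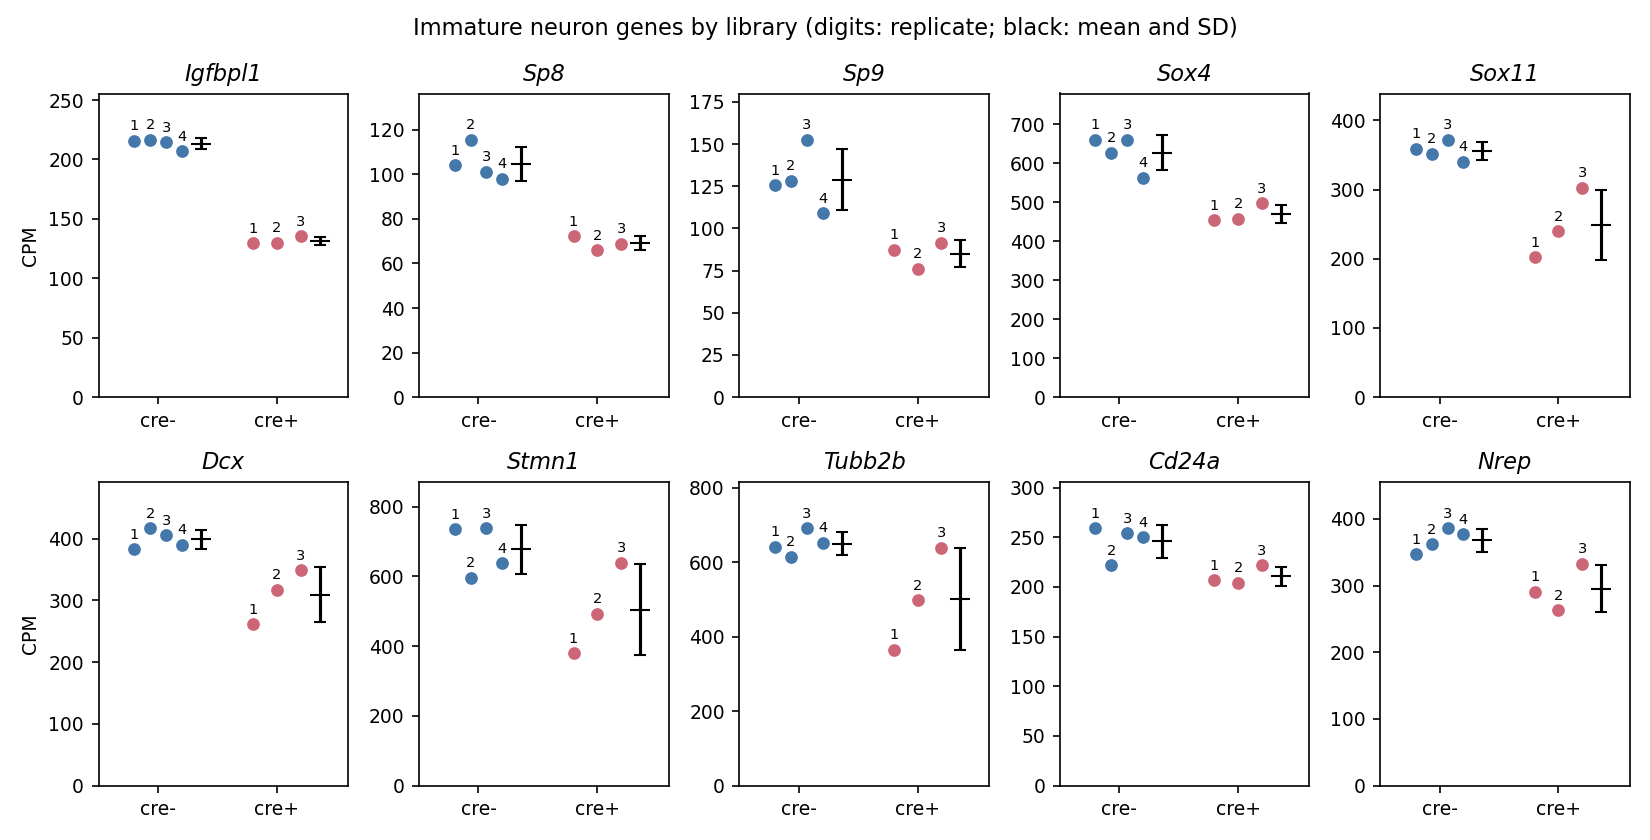
Normalised level (CPM, each axis from 0) of the 10 genes in every library, with blue points for the 4 cre- and red points for the 3 cre+ libraries, the replicate number above each point, and the mean with SD in black beside them. Igfbpl1 lies at 129.4 to 135.2 CPM in cre+ and at 206.8 to 216.5 CPM in cre-, while the points of Stmn1 and Tubb2b overlap between genotypes. The highest cre+ and the lowest cre- point of Cd24a both lie at 222.0 CPM.

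Sp8 and Sp9 are a pair of related zinc-finger transcription factors, needed for the formation of olfactory bulb interneurons. Sp8 had 72.2, 66.1 and 68.9 CPM in cre+ replicates 1 to 3 and 104.1, 115.5, 101.1 and 98.1 CPM in cre- replicates 1 to 4. Sp9 had 87.5, 76.2 and 91.7 CPM in cre+ and, in the same order of replicates, 125.5, 128.4, 152.6 and 109.1 CPM in cre-. For both genes every cre+ library lay below every cre- library, and the libraries spread further apart for Sp9, with cre- replicate 3 the highest and cre- replicate 4 the lowest of its group. The log2 fold change was -0.60 ± 0.09 (SE) for Sp8 and -0.60 ± 0.13 (SE) for Sp9. The ratio of Sp8 to Sp9 counts was 0.815 ± 0.058 (SD) over the 3 cre+ libraries, next to 0.823 ± 0.112 over the 4 cre- libraries, a gap smaller than the spread within either genotype. Of the exon bases of Sp9, 5.35% lie under exons of Cir1 on the opposite strand.

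Because Sp8 and Sp9 are paralogs with nearly equal fold changes, their promoter windows are shown as a pair. RefSeq promoter windows (GRCm38.p6, 250 bases before to 50 bases after a gene start, 5′ to 3′ on the strand of the gene) matched 5 of the 10 genes: Sp8, Sp9, Sox4, Sox11 and Dcx, with 3 windows for Sp8 and 2 for Dcx. The remaining genes were Igfbpl1, Cd24a, Stmn1, Tubb2b and Nrep. The second Sp8 window (chr12:118846983-118847282, plus strand) and the Sp9 window (chr2:73271676-73271975, plus strand) are printed below, with the longest run of bases common to them in capitals.
Sp8: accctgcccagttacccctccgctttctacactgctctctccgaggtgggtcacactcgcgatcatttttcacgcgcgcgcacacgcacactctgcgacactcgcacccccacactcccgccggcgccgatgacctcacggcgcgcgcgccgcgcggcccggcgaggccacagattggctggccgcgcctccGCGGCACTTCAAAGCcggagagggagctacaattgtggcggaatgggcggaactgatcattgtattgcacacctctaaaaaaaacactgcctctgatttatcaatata
Sp9: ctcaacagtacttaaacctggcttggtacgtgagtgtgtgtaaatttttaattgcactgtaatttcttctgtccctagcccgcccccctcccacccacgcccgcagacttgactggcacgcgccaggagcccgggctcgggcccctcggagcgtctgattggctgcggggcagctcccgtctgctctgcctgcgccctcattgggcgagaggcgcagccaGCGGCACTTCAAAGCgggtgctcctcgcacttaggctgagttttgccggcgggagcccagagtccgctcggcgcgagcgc

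The common run is 15 bases long, at -58 to -44 from the gene start in Sp8 and at -30 to -16 in Sp9. It was looked for after the sequences had been read. The second Sp8 window was taken because, of the Sp8 windows, it had the longest run in common with the Sp9 window. Both windows therefore hold the run by the way it was found. Of 32851 promoter windows, 2 held it on either strand (0.0061%), and these were the Sp8 and Sp9 windows themselves. How rare other runs of 15 bases are was not tested, so nothing is read from this share. The letters GGGCGG, the core of the GC box that Sp-family proteins bind, were searched on both strands and occurred in 35.7% of all windows. They occurred once in the Sp9 window, at 2 places in the Sox11 window and once in the second Sp8 window, and in none of the other matched windows. The letters ACAAAG, a core sequence bound by Sox proteins, occurred in 18.7% of all windows and, among the matched genes, in the second Dcx window only. No match of one motif overlapped a match of the other. These are matches of letters and were not tested for binding.

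Sox4 and Sox11 are transcription factors of the SoxC family, which switch on neuronal genes in newly committed neurons. Sox4 had 453.7, 457.5 and 497.3 CPM in cre+ replicates 1 to 3 and 659.6, 626.9, 659.4 and 562.2 CPM in cre- replicates 1 to 4, without overlap. Sox11 had 202.5, 240.0 and 302.4 CPM in cre+ and 359.2, 351.7, 371.8 and 340.4 CPM in cre-, also without overlap. The Sox11 levels of the cre+ libraries spread over a range of 0.58 on the log2 scale, those of the cre- libraries over 0.13, and cre+ replicate 1 was the lowest. For Sox4 the range was 0.13 in cre+ and 0.23 in cre-. The log2 fold change was -0.42 ± 0.11 (SE) for Sox4 and -0.52 ± 0.14 (SE) for Sox11. Exons of A330102I10Rik on the opposite strand cover 18.9% of the exon bases of Sox4, the largest such share of the 10 genes, and none of those of Sox11.

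Dcx, Stmn1 and Tubb2b act on microtubules: doublecortin binds and stabilises them in migrating neurons, stathmin 1 takes up free tubulin and favours disassembly, and Tubb2b is a beta-tubulin of developing neurons. Dcx had 261.6, 317.0 and 349.3 CPM in cre+ replicates 1 to 3 and 382.7, 416.8, 405.6 and 389.9 CPM in cre- replicates 1 to 4. The groups did not overlap, and the gap between cre+ replicate 3 and the lowest cre- library was 1.10-fold.

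Stmn1 had 379.6, 493.2 and 639.0 CPM in cre+, against 735.4, 596.6, 737.6 and 638.1 CPM in cre-. Tubb2b had 365.1, 498.7 and 638.9 CPM in cre+ and 642.2, 615.7, 691.5 and 653.4 CPM in cre-. For both genes cre+ replicate 1 was the lowest of all 7 libraries, and cre+ replicate 3 lay among the cre- libraries, so the genotypes overlapped. The log2 fold change was -0.37 ± 0.12 (SE) for Dcx, -0.43 ± 0.18 for Stmn1 and -0.38 ± 0.18 for Tubb2b. Without cre+ replicate 1 the estimates for Stmn1 and Tubb2b were -0.26 and -0.20, and without cre+ replicate 3 the estimate for Tubb2b was -0.59. The ratio of Stmn1 to Tubb2b counts nevertheless stayed between 0.989 and 1.04 in the cre+ libraries, with a mean of 1.01 ± 0.027 (SD, n = 3), against 1.04 ± 0.083 (SD, n = 4) in cre-. Of the 150-base windows of Tubb2b transcripts, 6.33% were shared with Tubb2a or Tubb2a-ps2, and of those of Stmn1, 2.27% were shared with Gm11223, so part of these counts could have been split with near-identical copies. Opposite-strand exons cover 13.9% of the exon bases of Stmn1 (1700021N21Rik) and 5.92% of those of Tubb2b (Gm36500).

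Cd24a encodes a small, lipid-anchored surface glycoprotein used to sort neuroblasts, which is also found on ependymal cells. It had 206.6, 204.4 and 222.0 CPM in cre+ replicates 1 to 3 and 259.0, 222.0, 254.1 and 249.9 CPM in cre- replicates 1 to 4. The highest cre+ and the lowest cre- library were equal to the digits given, and the log2 fold change of -0.22 ± 0.10 (SE) was the smallest of the 10. Exons of Mtres1 on the opposite strand cover 4.26% of its exon bases. Nrep encodes a small neuronal protein linked to regeneration. It had 290.6, 262.9 and 332.6 CPM in cre+ and 347.0, 361.8, 385.9 and 376.7 CPM in cre-, without overlap, and a log2 fold change of -0.32 ± 0.11 (SE).

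Compared per kilobase of exon in the GENCODE annotation, the 10 genes kept nearly the same order in both genotypes. In cre- the levels were 134.8 ± 14.1 CPM per kb for Stmn1, 130.8 ± 9.56 for Sox4, 105.6 ± 5.10 for Tubb2b, 95.3 ± 6.43 for Cd24a and 93.3 ± 4.33 for Nrep (SD, n = 4). Below these stood Igfbpl1 with 61.6 ± 1.29 CPM per kb, Sox11 with 42.8 ± 1.59, Dcx with 31.5 ± 1.21, Sp9 with 25.6 ± 3.56 and Sp8 with 20.2 ± 1.47. Neighbours whose SDs overlapped were Stmn1 and Sox4, Tubb2b and Cd24a, and Cd24a and Nrep, while each step from Nrep down to Sp8 was larger than the SDs. In cre+ Tubb2b and Cd24a changed places, at 81.3 ± 22.2 and 81.7 ± 3.70 CPM per kb (SD, n = 3), a gap far smaller than their spread. The annotation used for the deposited counts can differ from this one. Tubb2b has 6163 exon bases between 34307245 and 34315143 here, but the deposited counts place it at 34310731 to 34314449. Stmn1 and Igfbpl1 are also longer here. The levels per kb of these genes may therefore be too low, and the rank of Tubb2b is not settled.

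The median log2 fold change of the 10 genes was -0.42, with 10 of 10 below 0, whereas the median over all 21542 genes was -0.04, with 11624 of them below 0. Without cre+ replicate 1, the library that stood apart, the median of the 10 genes was -0.35 and Igfbpl1 stood at -0.69. In 8 of the 10 every cre+ library lay below every cre- library, with Cd24a counted at a near tie. This pattern was seen in 9.72% of all genes tested. Because these differences led to the choice of the genes, nothing is read from this count, and no test calls are given for the 10 genes. No gene of the whole table passed edgeR at an adjusted p under 0.05 (0 of 21542, 0%), with the lowest adjusted p at 0.0939. At an unadjusted p under 0.05, edgeR had 9.75% of all genes lower and 10.2% higher in cre+. DESeq2, the tool of the study, called 3.03% of 29539 genes lower and 3.71% higher, which is 5.48% and 6.70% of the 16345 genes that kept an adjusted p after its independent filter. These shares are the background for the calls in other gene lists.

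The 10 genes did not vary alike from library to library. Among the cre+ libraries, replicate 3 was the highest for 9 of the 10 genes, with Sp8 as the exception, and replicate 1 was the lowest for 6 and replicate 2 for 4. Relative to the cre- mean, the mean log2 CPM of the 10 genes was -0.59, -0.51 and -0.29 in cre+ replicates 1 to 3. Over the cre+ libraries the log2 CPM of Igfbpl1 ranged over 0.06, that of Cd24a over 0.12, that of Sp8 and that of Sox4 over 0.13 each, and that of Sp9 over 0.27, whereas Dcx spread over 0.42, Stmn1 over 0.75 and Tubb2b over 0.81. The ratio of Igfbpl1 to Dcx counts was 0.495, 0.410 and 0.387 in cre+ replicates 1 to 3 and 0.520 to 0.564 in cre-, so these genes did not keep a fixed proportion within cre+.

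**Figure D2:**
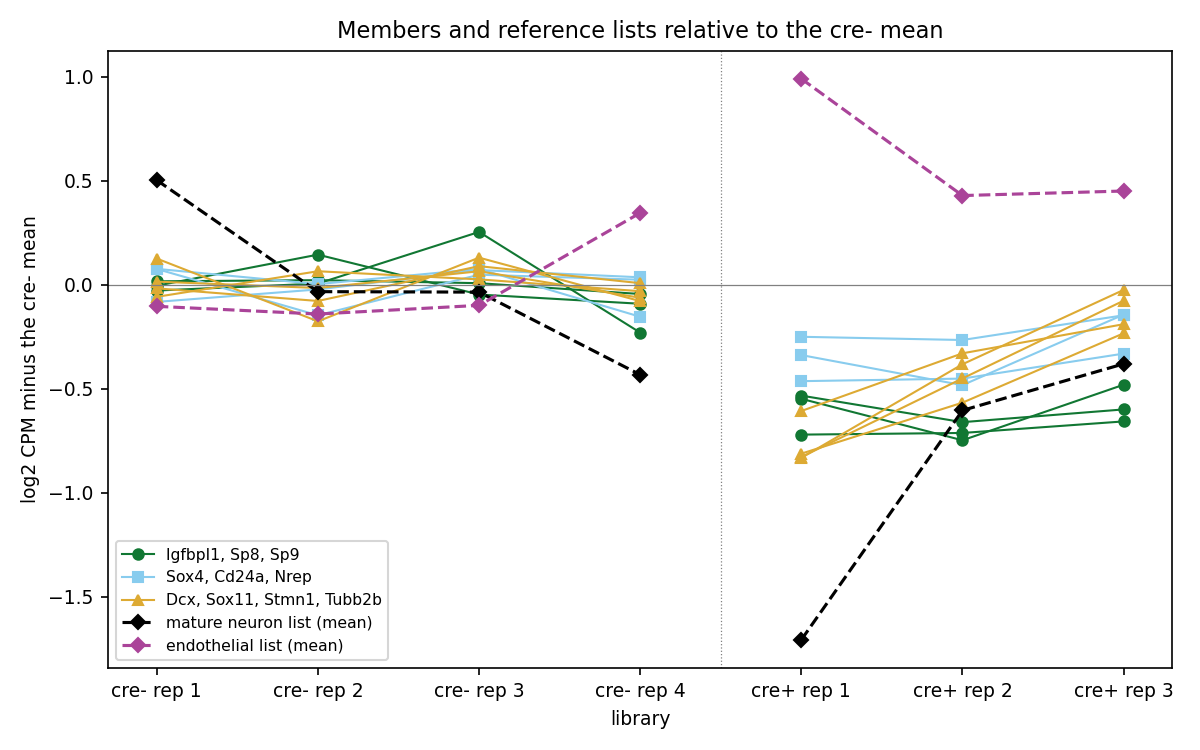
Level of each gene in each library as log2 CPM minus the cre- mean of that gene, with cre- libraries on the left and cre+ libraries on the right, lines joining the points of 1 gene, and dashed lines for the means of the mature neuron (black) and endothelial (purple) marker lists. In cre+ replicates 1 to 3 the mature neuron list lies at -1.71, -0.60 and -0.38 and the endothelial list at 0.99, 0.43 and 0.45, while Igfbpl1 stays at -0.72, -0.71 and -0.66.

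Marker lists of several other cell types differed in mean between the genotypes, some of them with overlap between libraries. In cre+ the mature neuron list stood at a mean of -0.90 ± 0.71 (SD) relative to the cre- mean on the log2 scale. This was further below 0 than the -0.46 of the 10 genes. The list stood at -1.71, -0.60 and -0.38 in the cre+ libraries against 0.50, -0.03, -0.04 and -0.43 in the cre- libraries. The genotypes overlapped on this list, through cre+ replicate 3 and cre- replicate 4. Of its 19 genes DESeq2 called 8 lower and none higher, with a list median of -0.87, and edgeR called none, with 12 lower at an unadjusted p under 0.05. Its most abundant gene was Snhg11, a neuronal noncoding RNA (log2 fold change -1.59 ± 0.38 SE, adjusted p = 5.97e-04 in DESeq2 and 0.0988 in edgeR). On a scale relative to this list, chosen after the data had been seen, the mean of the 10 genes was higher in cre+ than in cre- by 0.43 on the log2 scale, with an SD of 0.59 over the 3 cre+ libraries and of 0.36 over the 4 cre- libraries. The genotypes overlapped on that scale for each of the 10 genes.

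The endothelial list moved the other way. DESeq2 called 11 of its 14 genes higher in cre+, among them Slc2a1, the glucose transporter of brain capillaries (3448 ± 291.5 CPM in cre+ and 1721 ± 443.3 CPM in cre-, SD, adjusted p = 1.72e-04 in DESeq2 and 0.0939 in edgeR), and Flt1, a receptor for vascular endothelial growth factor (log2 fold change 0.76 ± 0.21 SE, adjusted p = 0.00968 in DESeq2). Its summed level was 15932 to 23002 CPM in cre+ and 10569 to 14763 CPM in cre-, without overlap. DESeq2 further called 6 of 10 mural, 4 of 8 fibroblast, 4 of 10 astrocyte, 3 of 10 oligodendrocyte and 3 of 10 ependymal markers higher, and none of the oligodendrocyte precursor, microglia or choroid plexus markers in either direction. Summed levels of the astrocyte list were 1550 to 1743 CPM in cre+ and 887.3 to 1208 CPM in cre-, those of the mural list 614.3 to 870.0 and 408.6 to 588.6 CPM, those of the fibroblast list 493.2 to 958.1 and 285.4 to 442.5 CPM, and those of the ependymal list 336.8 to 355.6 and 174.3 to 256.6 CPM. The oligodendrocyte list overlapped between genotypes, at 1017 to 2366 and 869.5 to 1604 CPM, as did the lists of oligodendrocyte precursors (137.3 to 424.1 and 128.6 to 468.1 CPM), microglia (746.6 to 1169 and 188.7 to 1752 CPM) and choroid plexus (6665 to 20252 and 4062 to 9615 CPM). Ependymal cells also carry Cd24a. The most abundant gene of their list, Tm4sf1 (214.9 ± 24.1 against 148.8 ± 28.5 CPM, SD), is also carried by endothelial cells, and without it the list summed to 116.2 to 160.8 CPM in cre+ and 52.0 to 101.7 CPM in cre-, with 2 of 9 genes called higher by DESeq2. Next came Foxj1, a master regulator of motile cilia (53.0 ± 9.14 against 33.3 ± 9.60 CPM, SD). The part of these cell types in the levels of the 10 genes was not tested beyond the fits with a list as covariate.

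With the endothelial list (its mean log2 CPM) as a covariate, the log2 fold changes of the 10 genes ran from -0.64 to -0.03. Igfbpl1 stood at -0.64 ± 0.13 (SE), Sp8 at -0.58 ± 0.16 and Sp9 at -0.46 ± 0.22. Nrep stood at -0.33 ± 0.18 and Cd24a at -0.22 ± 0.16. Sox4 stood at -0.25 ± 0.16, Sox11 at -0.23 ± 0.19, Dcx at -0.13 ± 0.16, Stmn1 at -0.04 ± 0.24 and Tubb2b at -0.03 ± 0.24. The last 5 moved by more than the spread between replicates, as did Igfbpl1, whose spread is very small, and Sp8, Sp9, Nrep and Cd24a did not. With the mature neuron list as the covariate, Igfbpl1 stood at -0.66 ± 0.12, Sp8 at -0.63 ± 0.13, Sp9 at -0.57 ± 0.18, Nrep at -0.31 ± 0.15 and Cd24a at -0.17 ± 0.13. Sox4 then stood at -0.31 ± 0.14, Sox11 at -0.28 ± 0.15, Dcx at -0.20 ± 0.14, Stmn1 at -0.08 ± 0.17 and Tubb2b at -0.08 ± 0.18. A gene with little spread within each genotype leaves a covariate little to fit, and Igfbpl1 was chosen for such a level, so its small shift follows from the choice. The median of the 10 genes was -0.24 with the endothelial and -0.30 with the mature neuron covariate. Both lists differ between the genotypes, so these fits divide the same 7 libraries between terms that move together, and the SEs grow accordingly.

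**Figure D3:**
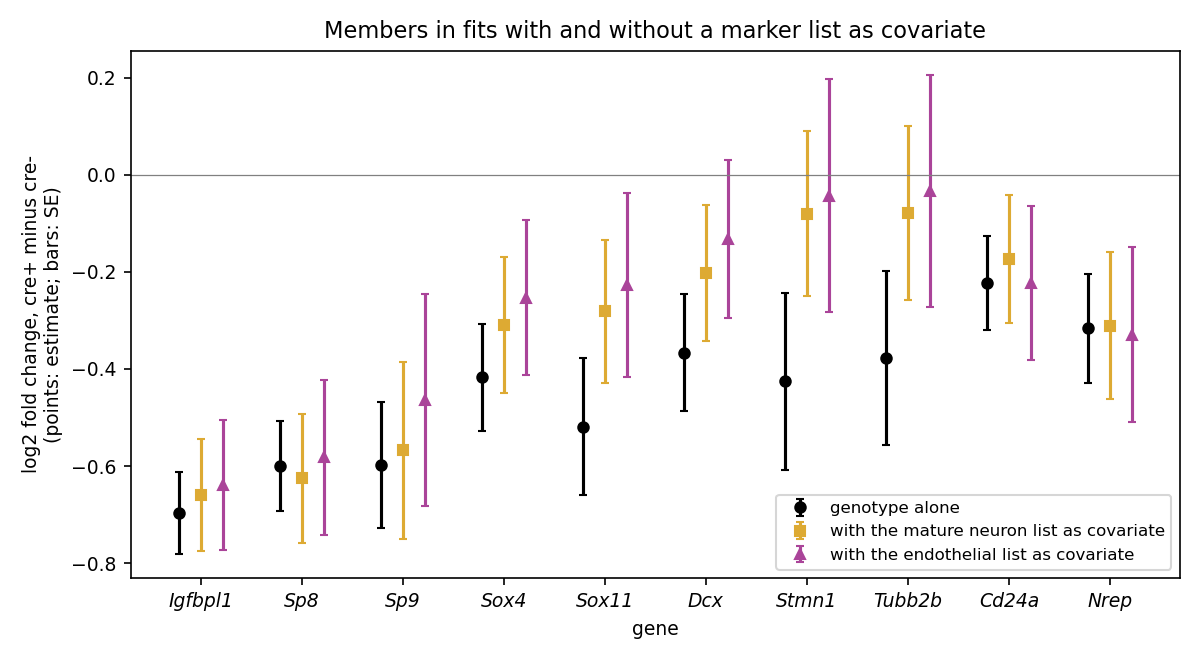
Log2 fold change (cre+ minus cre-, linear axis of log2 units) of each of the 10 genes in 3 edgeR fits, with genotype alone (black circles) or with the mature neuron list (yellow squares) or endothelial list (purple triangles) as a covariate, and bars for the SE. Igfbpl1, chosen for its small spread within genotypes, lies between -0.70 and -0.64 in the 3 fits, and Stmn1 lies at -0.43, -0.08 and -0.04.

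The 8 genes whose profile over the 7 libraries was most like that of Igfbpl1, by the root mean square (RMS) difference of centred log2 CPM among 11294 genes, were Rcor2, Ankrd13d, Fndc4, Klhl3, Sp8, Mapk11, Zfp286 and Insm1. Rcor2, a corepressor partner of the histone demethylase LSD1, was the nearest, with an RMS difference of 0.042. It had 28.3, 27.3 and 27.6 CPM in cre+ replicates 1 to 3 and 44.0, 44.5, 42.9 and 41.2 CPM in cre- replicates 1 to 4, again with a tight group in each genotype. Sp8 was the nearest of the other 9 genes, with an RMS difference of 0.084 and rank 5, and Insm1 followed at 0.095. The ranks of the rest were 64 for Sp9, 88 for Sox4, 127 for Sox11, 297 for Dcx, 444 for Nrep, 884 for Stmn1, 977 for Cd24a and 1030 for Tubb2b. Likeness to Igfbpl1 selects genes that are lower in cre+, so their differences are given here without a test.

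Other genes of neuroblasts and immature neurons were taken as 4 lists, and genes of the olfactory bulb interneurons they become and of progenitors and dividing cells as 2 more, together 123 genes, of which 122 were tested. These lists were chosen with earlier results of these data known, so their calls are no independent check. The median log2 fold change of the 122 genes was -0.41, with 109 below 0. edgeR called none of them at an adjusted p under 0.05, with 55 lower and 4 higher at an unadjusted p under 0.05. DESeq2 called 28 lower and 4 higher, 32 in all. In the 4 lists of neuroblasts and immature neurons alone, 84 of 90 genes lay below 0, with a median of -0.42, and DESeq2 called 27 lower and 3 higher. The 27 include genes that mature neurons also carry, among them Neurod6, Tbr1 and Neurod2. The count of 32 depended on single libraries: it was 14, 12 and 51 without cre+ replicates 1, 2 and 3, and 20, 15, 15 and 40 without cre- replicates 1 to 4. With the endothelial list as a covariate the median of the 122 genes was 0.01. At an unadjusted p under 0.05, 1 gene was then lower and 2 were higher, against 10 lower and 5 higher with the mature neuron covariate.

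**Figure D4:**
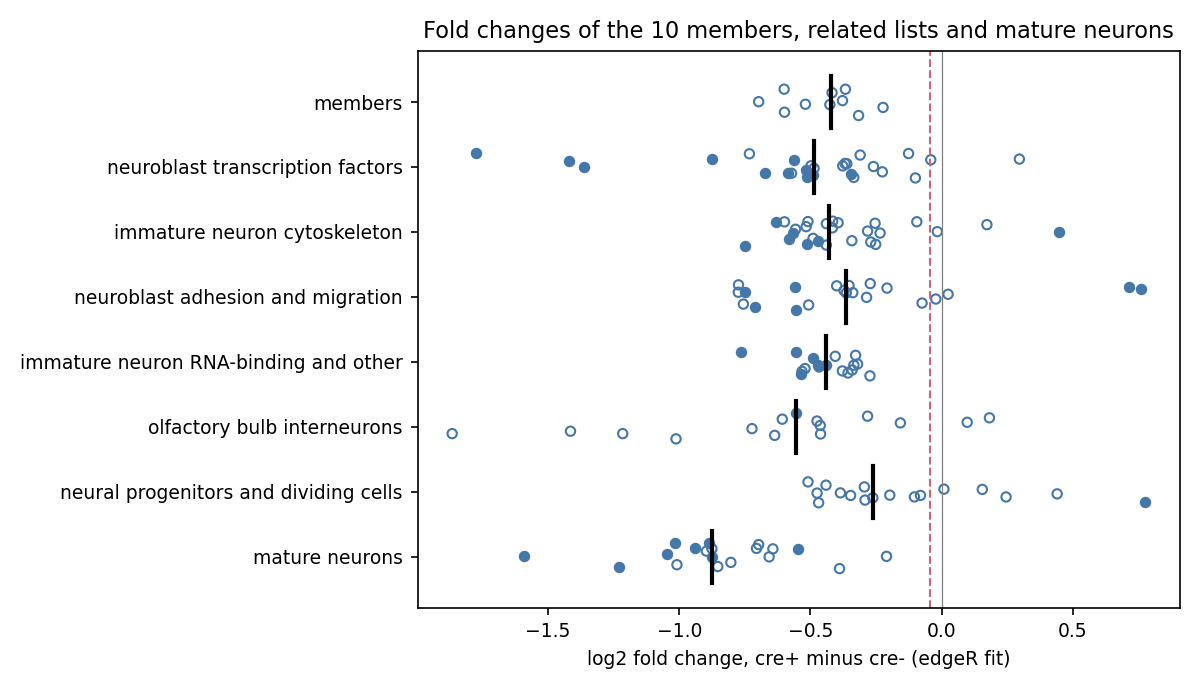
Log2 fold change (cre+ minus cre-, edgeR) of each gene, 1 row per list, with black bars for list medians, a dashed red line for the median of all genes (-0.04), and filled points for genes with an adjusted p under 0.05 in DESeq2 (the 10 genes are drawn open, without a test, and points are jittered vertically). The medians run from -0.26 for progenitors and dividing cells to -0.87 for mature neurons, with -0.42 for the 10 genes.

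Of 26 neuroblast transcription factors, DESeq2 called 11 lower and none higher, and the list median was -0.49. The 11 include Neurod6, Tbr1 and Neurod2, which mature neurons also carry and which had the largest falls of the list. Their log2 fold changes were -1.77 ± 0.60, -1.42 ± 0.57 and -1.36 ± 0.52 (SE, adjusted p = 0.017, 0.048 and 0.041 in DESeq2, 0.169, 0.215 and 0.203 in edgeR). For each of them cre+ replicate 1 was the lowest library, as for the mature neuron list. Insm1, a zinc-finger factor of newly born neurons and neuroendocrine cells, had 40.6, 42.7 and 42.5 CPM in cre+ replicates 1 to 3 and 67.1, 72.5, 71.4 and 56.2 CPM in cre- replicates 1 to 4. The groups did not overlap, and the log2 fold change was -0.67 ± 0.11 (SE). Insm1 is among the genes picked for likeness to Igfbpl1, so no test is given for it, although the 11 calls include it. Dlx6, a homeobox factor of forebrain inhibitory neurons, fell by 0.88 ± 0.20 on the log2 scale (adjusted p = 0.00173 in DESeq2 and 0.0978 in edgeR). Meis2, a homeobox factor of olfactory bulb neuroblasts, fell by 0.49 ± 0.12 (adjusted p = 0.00391 in DESeq2 and 0.0985 in edgeR).

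Of 26 cytoskeletal genes of immature neurons, DESeq2 called 6 lower and 1 higher, with a list median of -0.43. Basp1, a membrane-bound growth cone protein, had 187.5, 224.0 and 222.8 CPM in cre+ and 429.0, 316.6, 386.2 and 288.5 CPM in cre-, without overlap (log2 fold change -0.75 ± 0.16 SE, adjusted p = 0.00106 in DESeq2 and 0.0939 in edgeR). Dclk2, a relative of doublecortin, and Marcksl1, an actin-binding protein, fell by 0.63 ± 0.16 and 0.51 ± 0.13 (adjusted p = 0.00644 and 0.00725 in DESeq2, 0.101 and 0.102 in edgeR). Nde1, a dynein regulator that is also used in dividing cells, rose by 0.45 ± 0.12 (adjusted p = 0.0347 in DESeq2 and 0.117 in edgeR). It was the single gene of this list that DESeq2 called higher.

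Of 21 genes of neuroblast adhesion and migration, DESeq2 called 4 lower and 2 higher, with a list median of -0.36. Celsr3, an adhesion receptor for axon guidance, and Draxin, a secreted guidance cue, fell by 0.71 ± 0.15 and 0.56 ± 0.12 (adjusted p = 0.00111 and 0.00367 in DESeq2, both 0.0939 in edgeR). Itga6, a laminin receptor subunit that endothelial cells also carry, had 530.6, 386.7 and 432.6 CPM in cre+ and 231.2, 236.8, 270.4 and 325.1 CPM in cre-. The log2 fold change was 0.76 ± 0.16 (SE, adjusted p = 0.00118 in DESeq2 and 0.0939 in edgeR), and the groups did not overlap. St8sia4, an enzyme that adds polysialic acid to NCAM, rose by 0.71 ± 0.15 (adjusted p = 0.00250 in DESeq2 and 0.0939 in edgeR). Of the genes of the 6 lists, Itga6, St8sia4, Nde1 and Nes were those that DESeq2 called higher.

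Of 18 RNA-binding and other genes of immature neurons, 17 were tested, Igf2bp1 being below the filter. DESeq2 called 6 lower and none higher, and all 17 had a log2 fold change below 0, with a median of -0.44. Celf3, a neuronal splicing regulator, had 128.7, 131.9 and 177.8 CPM in cre+ and 240.9, 288.8, 264.0 and 200.6 CPM in cre- (log2 fold change -0.77 ± 0.16 SE, adjusted p = 0.00142 in DESeq2 and 0.0939 in edgeR). Mex3a, an RNA-binding protein of progenitors and young neurons, Nsg1, an endosomal protein of neurons, and Mllt11 fell by 0.44 ± 0.13, 0.49 ± 0.15 and 0.47 ± 0.14 (adjusted p = 0.0294, 0.0356 and 0.0450 in DESeq2, 0.121, 0.132 and 0.139 in edgeR). None of these 4 genes overlapped between genotypes.

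Of 15 genes of olfactory bulb interneurons, the cells that many neuroblasts become, DESeq2 called 1 lower and none higher, although the list median of -0.56 was below that of the 10 genes. That gene was Gad2, which makes the transmitter GABA, at 71.0, 92.0 and 116.6 CPM in cre+ and 142.3, 151.8, 143.6 and 110.2 CPM in cre- (log2 fold change -0.56 ± 0.18 SE, adjusted p = 0.0476 in DESeq2 and 0.153 in edgeR). Its groups overlapped through cre+ replicate 3 and cre- replicate 4. Trh, a hypothalamic and bulb neuropeptide gene, Gad1 and Synpr, a synaptic vesicle protein, had log2 fold changes of -1.41 ± 0.51, -0.64 ± 0.24 and -0.28 ± 0.12 (adjusted p = 0.0585, 0.0750 and 0.182 in DESeq2). No gene of this list was free of overlap in the lower direction. The RNA came from whole brain, and inhibitory neurons elsewhere also carry Gad1, Gad2 and Slc32a1 of this list. The list is therefore not particular to olfactory bulb interneurons.

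Of 17 genes of neural progenitors and dividing cells, DESeq2 called none lower and 1 higher. The list median was -0.26, with 12 genes below 0 and 5 above. Nes, an intermediate filament of progenitors and also of endothelial cells, had 475.7, 214.3 and 337.7 CPM in cre+ and 203.0, 170.0, 197.2 and 230.1 CPM in cre- (log2 fold change 0.78 ± 0.24 SE, adjusted p = 0.0262 in DESeq2 and 0.139 in edgeR). The cell cycle genes Rrm2, Cdk1 and Ccnb1 had log2 fold changes of -0.47 ± 0.19, -0.51 ± 0.21 and -0.44 ± 0.21 (adjusted p = 0.120, 0.111 and 0.188 in DESeq2). With Nes, they were the 4 genes of smallest p in the list. Other genes of dividing cells lay nearer 0, among them Pcna at 0.01 ± 0.12 and Tyms at -0.08 ± 0.23. The list includes stem cell genes and cell cycle genes, which were not tested against each other.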

How the data were processed

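RNA was prepared from neurons isolated from whole mouse brain, and poly(A) libraries were sequenced as paired reads. As the paper's methods and the processing notes of the submitters state, the authors used fastp for trimming, FastQC for read quality, STAR for alignment to GRCm39, SAMtools to filter alignments, StringTie for quantification and DESeq2 for testing. Versions, annotation release and strand setting were not given in the sources used here. Raw counts were deposited by the authors per gene, as whole numbers in 46382 rows per library, together with a normalized signal, which is the deposited count divided by 1 factor per library and was not used for tests. Of 46 symbols listed more than once, 49 repeats with identical counts were dropped, which left 46333 genes.

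Counts were fitted with edgeR 4.0.16 in R 4.3.3 (quasi-likelihood F-test, TMM factors, filterByExpr, genotype as the single term, Benjamini-Hochberg adjustment over 21542 genes, threshold 0.05). CPM is the normalised level from edgeR's cpm function with TMM factors. The SE of an edgeR log2 fold change is its absolute value divided by the square root of the quasi-likelihood F. It is not a direct measure of the spread of that gene between replicates. DESeq2 1.42.0, the tool of the study, was the alternative over 29539 genes with at least 1 count, of which 16345 kept an adjusted p-value after its independent filter. A limma 3.58.1 voom fit, other scalings and filters, the replicate number as a block, marker lists as covariates and leaving out each library were further alternatives. The members and all gene lists were chosen with earlier results of these data known. Genes named outside the members were the 4 with the smallest p of each related list, the 8 with a profile most like that of Igfbpl1, Il4ra, and up to 2 with the highest mean CPM of each marker list. Some genes that this rule names are not reported here.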

Additional observations from a re-analysis of the deposited data

How the results depend on the processing

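Each of the 10 genes kept a log2 fold change below 0 in every fit made. For Stmn1 and Tubb2b the sign is not resolved in the covariate fits. They stood at -0.04 ± 0.24 and -0.03 ± 0.24 (SE) with the endothelial list and at -0.08 ± 0.17 and -0.08 ± 0.18 with the mature neuron list. Igfbpl1, at -0.70, stood at -0.82 with library totals as the scale, at -0.64 and -0.66 with the endothelial and mature neuron lists as covariates, and at -0.72 to -0.69 without each library in turn with edgeR (-0.70 to -0.68 with DESeq2). The median of the 10 genes, at -0.42, stood at -0.54 with library totals, which moved the median of all genes from -0.04 to -0.16, at -0.24 and -0.30 with the endothelial and mature neuron covariates, and at -0.59 (without cre+ replicate 3) to -0.35 (without cre+ replicate 1) with edgeR and at -0.58 to -0.34 with DESeq2. The number of these genes without overlap was 7 to 10 when single libraries were left out, with 10 without cre+ replicate 3 or cre- replicate 2, while the share of all genes lower without overlap ran from 11.4% (without cre- replicate 2) to 16% (without cre+ replicate 3), against 9.72% over the 7 libraries. Of 170 values of single genes over 17 planned settings, 153 moved by less than the spread between replicates and none changed sign. DESeq2 without each library in turn was added after the data had been seen.

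edgeR called 0 genes and DESeq2 1990, of which 32 were in the 6 related lists. Without each library in turn edgeR called 0 to 5 genes, the 5 without cre+ replicate 1, and none in the related lists, whereas DESeq2 called 1103, 1265 and 2258 genes without cre+ replicates 1 to 3 and 1681, 755, 919 and 2210 without cre- replicates 1 to 4, of which 14, 12 and 51 and 20, 15, 15 and 40 were related genes. With library totals 3298 genes were lower without overlap, against 2093. The cause of these shifts was not tested.

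Replicate numbers are shared between the genotypes, and the labels do not say whether they pair the samples. Deviations of same-numbered libraries from their group means had correlations of -0.088, 0.0052 and 0.193 over 15985 genes. Differently numbered libraries were not compared in this way, so these values cannot decide whether the samples are paired. With the replicate block, over 6 libraries, the median of the 10 genes was -0.47 and Igfbpl1 stood at -0.71, against -0.46 and -0.71 in the same libraries without the block, and 0 genes were called, related genes included. With 3 and 4 libraries, the SEs of the 10 log2 fold changes ran from 0.08 to 0.18, and differences of this size or smaller cannot be resolved.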
